A study of Mus musculus with 48 samples.

Results

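In the mouse lung, 9 genes of selenium biology were followed: Sepp1, Sepw1, Sepn1, Selk, Selm and Selt, which encode selenoproteins, Sephs1 and Sephs2, which encode selenophosphate synthetases, and Secisbp2, which encodes a factor that reads selenocysteine into protein. They were chosen by name, as the rows of the expression table carrying these former symbols (Selenop, Selenow, Selenon, Selenok, Selenom and Selenot are the current names of the first 6). All 9 of 9 were found among 47561 genes, and each was at 1 FPKM or more in all 48 mice (FPKM is a fragment count scaled to transcript length and library size, so that levels of different genes can be compared).

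The lungs came from 48 adult mice, 3 in each of 16 groups. The groups crossed the inbred strains C3H/hen (C3H) and C57Bl/6 (C57B), male (M) and female (F), 1 intraperitoneal injection of saline (SAL) or of 25 mg/kg aurothioglucose (ATG), and 96 h in room air (RA) or in hyperoxia with over 95% oxygen (HYP). Every mouse had an injection, and the labels name no engineered allele. ATG is a gold compound known as an inhibitor of thioredoxin reductase, itself a selenoprotein, and hyperoxia is an oxidant exposure that injures the lung. The questions were how strain, sex, hyperoxia and ATG each related to the level of the 9 transcripts.

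Selenocysteine is inserted at a TGA codon that would otherwise end translation. A stem-loop in the untranslated region of the messenger RNA, the SECIS element, is bound by the protein Secisbp2, which works with the elongation factor Eefsec and a dedicated tRNA. The selenium donor, selenophosphate, is made by Sephs2, which is a selenoprotein itself, whereas Sephs1 is a related protein that is not known to supply selenium for this step. Sepp1 is the secreted plasma protein that carries selenium between tissues, taken up through the receptors Lrp8 and Lrp2. Sepw1 is a small cytosolic redox protein, Selm and Selt are thioredoxin-fold proteins of the secretory pathway, Selk is a membrane protein of the endoplasmic reticulum linked to calcium flux in immune cells, and Sepn1 is an endoplasmic reticulum protein best known from muscle.

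The annotated coding sequences show which of the 9 transcripts depend on this recoding. In GENCODE transcripts on GRCm38, the genome also called mm10, Sepp1 had 10 in-frame selenocysteine codons, at codons 59 to 377 of 380, and Sepw1, Sepn1, Selk, Selm, Selt and Sephs2 had 1 each. Sephs1 (chr2:4881564-4910557, plus strand) and Secisbp2 (chr13:51651697-51684044, plus strand) had 0. The codons are shown with the bases around them, 5′ to 3′ along the spliced messenger and within the coding exons, because they are the positions at which these messages need selenium. The capitals mark the numbered selenocysteine codon of each line, and in the line for Sepp1 codon 377 the lower-case tga ahead of it is codon 375, a selenocysteine codon as well.
Sepp1 codon 59 (chr15:3274848-3274850, plus strand): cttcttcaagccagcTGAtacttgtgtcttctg
Sepp1 codon 377 (chr15:3279696-3279698, plus strand): accaggaagtgaaaaTGAcattcaaac
Sepw1 codon 13 of 88 (chr7:15920464-15920466, minus strand): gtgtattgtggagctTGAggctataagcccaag
Selm codon 48 of 145 (chr11:3516273-3516275, plus strand): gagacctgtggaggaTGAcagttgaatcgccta
Selt codon 49 of 195 (chr3:58585238-58585240, plus strand): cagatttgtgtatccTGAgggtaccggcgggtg
Selk codon 92 of 94 (chr14:29973440-29973442, plus strand): ccaatggctggtggaTGAggaagg
Sepn1 codon 428 of 557 (chr4:134542338-134542340, minus strand): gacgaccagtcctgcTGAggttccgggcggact
Sephs2 codon 63 of 452 (chr7:127273731-127273733, minus strand): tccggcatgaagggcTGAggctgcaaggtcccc
In Sepw1, Selm and Selt the codon that stands 3 codons before the TGA was tgt, a cysteine codon, whereas in the first Sepp1 site tgt stood 3 codons after it. The TGA of Selk and the last of Sepp1 stood close to the end of the coding sequence, whereas that of Sepw1 stood close to its start.

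In the 12 mice given saline in room air, Sepp1 was highest at 733 ± 103 FPKM (SD, n = 12), followed by Sepw1 at 356 ± 130, Selk at 135 ± 37.1, Selt at 88.0 ± 15.6 and Selm at 49.7 ± 9.54. Sepn1 had 18.4 ± 4.79 FPKM, Sephs2 had 17.1 ± 3.74, Sephs1 had 12.6 ± 2.37 and Secisbp2 was lowest at 4.90 ± 1.203. The ranges of neighbours in this order overlapped for Sepp1 and Sepw1, Selk and Selt, Selt and Selm, Sepn1 and Sephs2, and Sephs2 and Sephs1. Within each mouse the order was mostly kept, since Sepp1 exceeded Sepw1 in 11 of 12 mice and Sephs2 exceeded Sephs1 in 12 of 12. Sepn1 and Sephs2 could not be ordered, with Sepn1 higher in 6 of 12 mice.

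**Figure D1:**
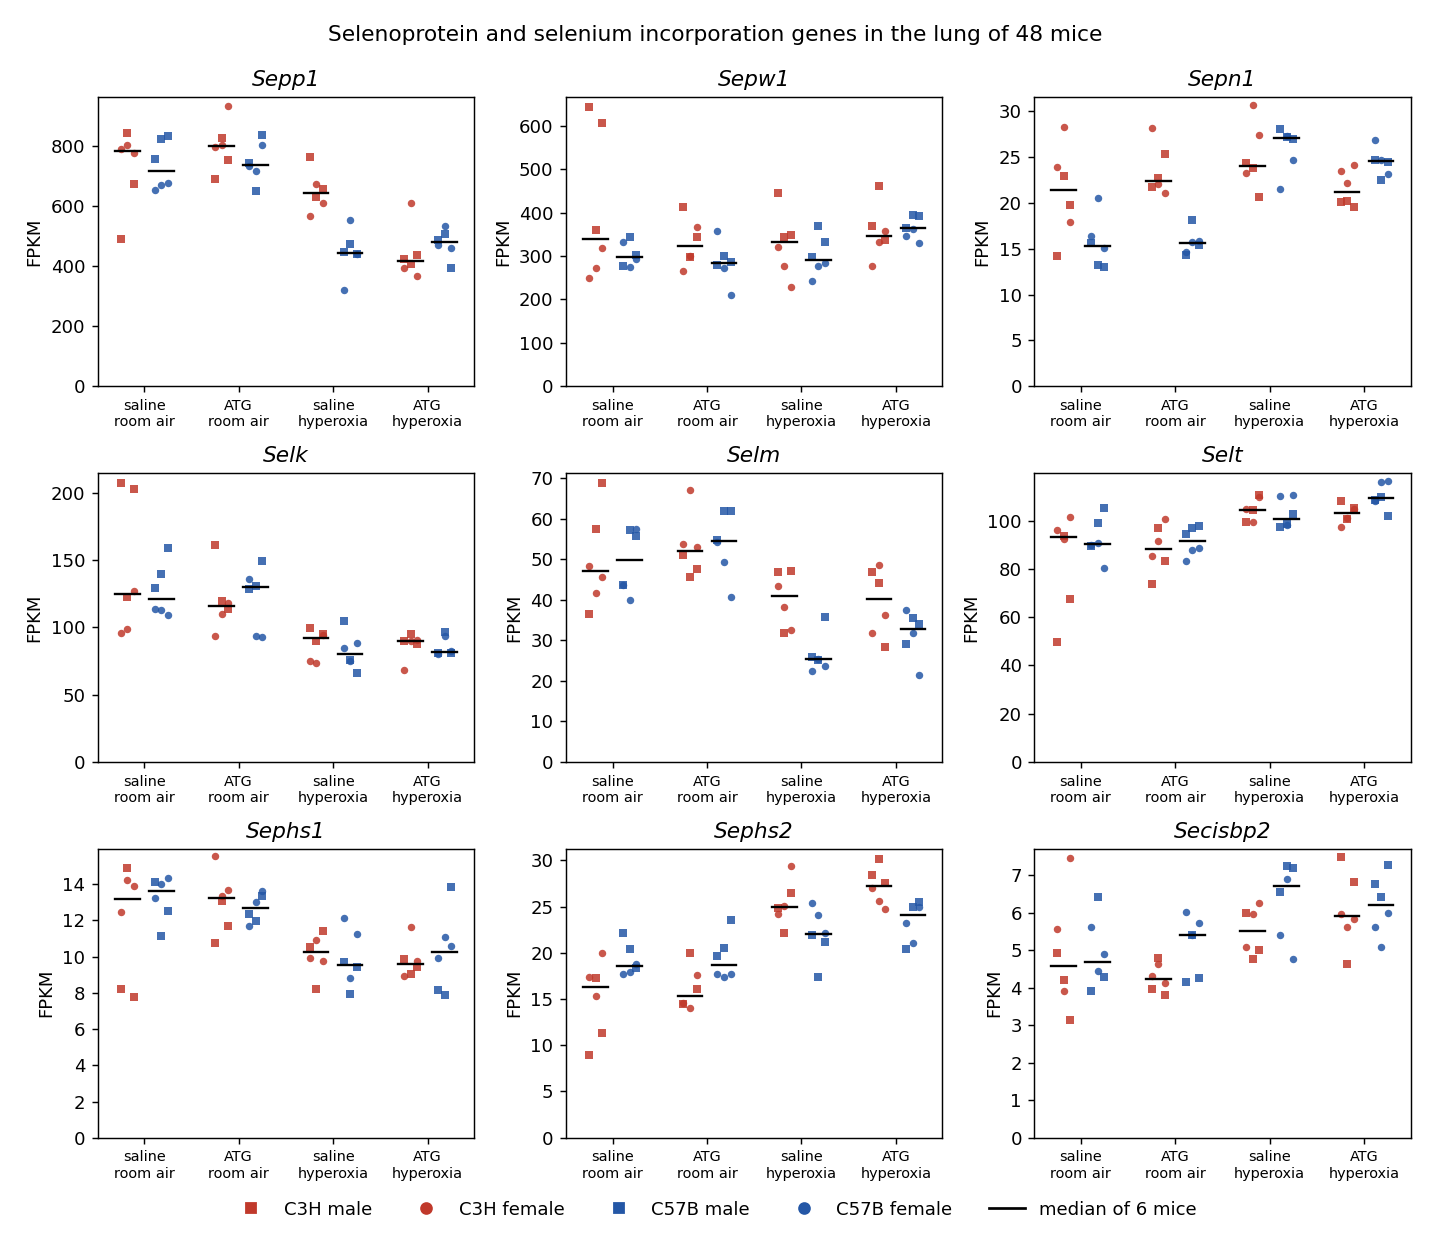
FPKM of each of the 9 genes (vertical axes, from 0) in every mouse, by injection and air, with C3H in red, C57B in blue, males as squares, females as circles and bars at the median of 6 mice. Sepp1, Selk, Selm and Sephs1 lie lower in hyperoxia and Sepn1 and Sephs2 higher, and a pair of C3HM saline room-air mice stands apart for Sepw1 and Selk.

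A pair of libraries stood apart from the rest of their group. The median correlation of C3HM SAL RA mice 1 and 3 with the other saline room-air mice, over 15546 genes, was 0.903 and 0.915, against 0.931 to 0.943 for the other 10 mice. In mice 1, 2 and 3 of that group Sepw1 was at 644, 360 and 606 FPKM, Selk at 207, 123 and 203, Sephs2 at 8.93, 17.2 and 11.4, and Selt at 49.8, 93.7 and 67.5. Mice 1 and 3 were thus above all other saline room-air mice for Sepw1 and Selk and below them for Sephs2 and Selt. Values without both mice are given beside most of the tests that use this group. They are not given for the levels and ranges in FPKM or for the likeness of pattern.

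Hyperoxia moved 8 of the 9 transcripts in the 24 mice given saline, 4 up and 4 down, at an adjusted p under 0.05 (limma on log2(FPKM + 1), Benjamini-Hochberg over 16321 genes). Of all genes tested, 60.1% passed in this comparison, 31.8% higher and 28.3% lower, so a call in this comparison was common across the expressed genes. Sepp1, Selk, Selm and Sephs1 fell, and Sepn1, Sephs2, Selt and Secisbp2 rose. Median change over the 9 was -0.14 on the log2 scale, the value of Sepw1, beside 0.01 over all genes tested. Without C3HM mice 1 and 3 the median of the 9 was -0.00426.

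Sepp1, the selenium carrier, ranged over 489, 767 and 844 FPKM (lowest, median, highest) in the 12 room-air mice and over 322, 561 and 765 in the 12 hyperoxia mice. The groups overlapped, with 5 hyperoxia mice below every room-air mouse. The log2 change was -0.44 ± 0.09 (SE), with an adjusted p of 0.000186 by limma, and it was -0.53 without C3HM mice 1 and 3 (adjusted p = 1.52e-05).

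Selk, the endoplasmic reticulum membrane protein, was at 95.9, 125 and 207 FPKM in room air and at 65.8, 86.3 and 105 in hyperoxia, and 10 of 12 hyperoxia mice lay below every room-air mouse. The log2 change was -0.63 ± 0.09 (limma adjusted p = 7.02e-06), and it was -0.50 without C3HM mice 1 and 3 (adjusted p = 5.73e-05). Selk shares 13.2% of its 30-base words with transcripts of other genes, chiefly Selk pseudogenes, so reads could have been split between them.

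Selm, the secretory-pathway thioredoxin-fold protein, had 36.4, 47.0 and 68.9 FPKM in room air and 22.4, 32.2 and 47.1 in hyperoxia. Here 8 of 12 hyperoxia mice were below all room-air mice. The log2 change was -0.59 ± 0.10 (limma adjusted p = 5.97e-05), and -0.62 without C3HM mice 1 and 3 (adjusted p = 3.10e-05). Selk had the largest estimated fall of the 9 with all mice, and Selm, with Sepp1 next, had it without those mice.

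Among the transcripts that rose, Sepn1 went from 13.1, 17.1 and 28.3 FPKM in room air to 20.7, 25.8 and 30.6 in hyperoxia, a log2 change of 0.48 ± 0.09 (limma adjusted p = 9.00e-05) that was 0.41 without C3HM mice 1 and 3 (adjusted p = 0.000601). The groups overlapped, with 1 hyperoxia mouse above every room-air mouse. Selt, at 49.8, 91.6 and 105 FPKM and then 97.2, 104 and 111, changed by 0.26 ± 0.07 (adjusted p = 0.00471). Of the hyperoxia mice, 4 of 12 lay above all room-air mice for Selt, and its lowest room-air values were those of C3HM mice 1 and 3. The Selt change was 0.15 (adjusted p = 0.0142) without both, and it was 0.07 (adjusted p = 0.374) after quantile normalization.

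The selenophosphate synthetases moved in opposite directions. Sephs2, the enzyme that supplies selenophosphate, was at 8.93, 17.8 and 22.1 FPKM in room air and at 17.4, 24.1 and 29.4 in hyperoxia, with 9 of 12 hyperoxia mice above all room-air mice. Its log2 change was 0.47 ± 0.08 (limma adjusted p = 6.95e-05). Sephs1 was at 7.80, 13.6 and 14.9 FPKM in room air and at 7.92, 9.83 and 12.1 in hyperoxia, a log2 change of -0.29 ± 0.09 (adjusted p = 0.0102), and the only room-air mice under 11 FPKM were C3HM mice 1 and 3. Without both, the Sephs1 change was -0.43 (adjusted p = 0.000115) and that of Sephs2 was 0.35 (adjusted p = 0.000241).

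Secisbp2, the SECIS-binding factor, was the least abundant and the least certain of the 8. It had 3.13, 4.67 and 7.45 FPKM in room air and 4.76, 5.98 and 7.25 in hyperoxia, and the room-air range covered the hyperoxia range. The log2 change was 0.25 ± 0.10 (limma adjusted p = 0.0381), and without C3HM mice 1 and 3 it was 0.23 (adjusted p = 0.0704). Sepw1 did not pass, with 249.8, 311 and 644 FPKM in room air, 228, 309 and 445 in hyperoxia, and a log2 change of -0.14 with a 95% interval from -0.33 to 0.06 (adjusted p = 0.209). It passed after quantile normalization (-0.34, adjusted p = 0.00359) and without C3HM mouse 2 (-0.20, adjusted p = 0.0209), and without mice 1 and 3 its estimate was -0.00426 ± 0.0794.

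Levels in whole lung do not separate fewer cells of a type from less RNA per cell, and markers of lung cells moved with hyperoxia in the same mice. The summed FPKM of 5 alveolar type 2 markers was 25381 to 48867 in saline room-air mice and 5697 to 21494 in hyperoxia, with 4 of 5 markers lower and 1 higher. The 3 club cell markers summed to 69658 to 230687 FPKM and then 6935 to 42120, and all 3 fell. All 5 neutrophil markers (4 without C3HM mice 1 and 3) and 3 of 5 monocyte and macrophage markers rose, with neutrophil sums of 135 to 774 FPKM in room air and 161 to 6265 in hyperoxia. Of the other lists, B cell (4 of 4), T cell (4 of 4), cardiac muscle (4 of 4), erythroid (3 of 3 tested), ciliated (3 of 4), dividing cell (3 of 4), alveolar type 1 (3 of 5) and endothelial markers (2 of 5, and 1 higher) fell, fibroblast markers had 1 of 5 higher, and alveolar macrophage markers had 3 of 5 higher and 2 lower. Of all these markers 1, the erythroid gene Alas2, was at 0 in all mice. Their part in the changes of the 9 genes was not tested.

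Hyperoxia was next compared between strains. In C3H mice Selk (-0.63), Selt (0.36) and Sephs2 (0.75) passed the test, in a contrast in which 37.8% of all genes passed. In C57B mice Sepp1 (-0.73), Sepn1 (0.70), Selk (-0.62), Selm (-0.89) and Sephs1 (-0.40) passed, where 55.5% of all genes did. Without C3HM mice 1 and 3 the C3H estimate was -0.38 for Selk (adjusted p = 0.0367), 0.51 for Sephs2 (adjusted p = 0.00142), 0.14 for Selt (adjusted p = 0.198) and -0.46 for Sephs1 (adjusted p = 0.00814), and that of Selt in C57B, 0.16, passed (adjusted p = 0.0330). The C3H calls also depended on the scaling. With median ratio scaling Sepp1 (-0.30, adjusted p = 0.0446), Selm (-0.45, adjusted p = 0.0146), Sephs1 (-0.32, adjusted p = 0.0301) and Sepw1 (-0.41, adjusted p = 0.0455) passed in C3H and Selt did not (0.21, adjusted p = 0.0606). Quantile normalization gave the same calls for Selm, Sephs1, Sepw1 and Selt, and either scaling added Secisbp2 in C57B (0.34, adjusted p = 0.0444, and 0.44, adjusted p = 0.0122). The difference between the strains itself passed for 2 of the 9 genes, Sepp1 and Sephs2, and for 11.5% of all genes. The median of all genes in that difference was 0.15 on the log2 scale, and -0.00128 after median ratio scaling, under which 917 genes were higher and 1084 lower, in place of 1422 and 458.

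For Sepp1, C57B mice were at 654, 717 and 835 FPKM in room air and at 322, 443 and 554 in hyperoxia, and these groups did not overlap. The same held in C57B for Sepn1, Selk and Selm, and the share of all genes without overlap was not counted. In C3H mice Sepp1 was at 489, 783 and 844 FPKM in room air and at 568, 644 and 765 in hyperoxia, which did overlap. The log2 change was -0.73 ± 0.12 for C57B mice against an estimate of -0.15 ± 0.12 for C3H mice, a difference of 0.58 ± 0.17 (limma adjusted p = 0.0326). Without C3HM mice 1 and 3 the C3H estimate was -0.33 (adjusted p = 0.0513) and the difference was 0.40 (adjusted p = 0.120), so the call on the difference depended on those mice. It also missed the threshold after median ratio scaling (0.39, adjusted p = 0.129), and it passed in 16 of 24 fits with a mouse left out.

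The FPKM values of Sepp1 in hyperoxia did not involve those mice, although the SE and adjusted p drew on the spread of all saline mice. All 6 C3H saline hyperoxia mice were above all 6 C57B ones, with a log2 difference of 0.56 ± 0.12 (limma adjusted p = 0.00185, where 27.2% of all genes passed). Selm showed a difference of like size in hyperoxia, 0.58 ± 0.15 (adjusted p = 0.00568), with 31.9, 40.8 and 47.1 FPKM in C3H and 22.4, 25.4 and 35.7 in C57B. In Selm, 4 of the 6 C3H mice were above all C57B mice. For Selm the hyperoxia change was -0.89 in C57B mice against -0.29 in C3H mice, a difference of 0.59 with an adjusted p of 0.0673, and of 0.53 without C3HM mice 1 and 3 (adjusted p = 0.0986).

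Sephs2 showed the other order. C3H mice had 8.93, 16.3 and 20.0 FPKM in room air and 22.1, 25.0 and 29.4 in hyperoxia, without overlap, and C57B mice had 17.7, 18.6 and 22.1 and then 17.4, 22.0 and 25.4. The log2 estimate was 0.18 ± 0.12 for C57B mice against 0.75 ± 0.12 for C3H mice, a difference of 0.57 ± 0.17 (limma adjusted p = 0.0314). Without C3HM mice 1 and 3 it was 0.33 (adjusted p = 0.1301), after median ratio scaling it was 0.39 (adjusted p = 0.0894), and it passed in 14 of 24 fits with a mouse left out. Sepn1 pointed the opposite way, with 0.25 in C3H and 0.70 in C57B (adjusted p of the difference 0.0939). That difference passed without both mice (-0.59, adjusted p = 0.0404), with median ratio scaling (-0.64, adjusted p = 0.0202) and with quantile normalization (-0.54, adjusted p = 0.0404). Selk changed by -0.63 and -0.62, with a 95% interval of the difference from -0.39 to 0.38, and the difference was 0.24 without both mice (adjusted p = 0.400).

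Cell type markers moved with strain in the same mice. In saline hyperoxia 4 of the 14 marker sums did not overlap between the strains. The club cell sum was 27212 to 42120 FPKM in C3H and 6935 to 17436 in C57B, the endothelial sum was 1287 to 1735 and 744 to 1067, the alveolar macrophage sum was 252 to 656 and 737 to 1772, and the dividing cell sum was 8.32 to 19.5 and 3.2 to 6.85. For the strain difference in the hyperoxia effect, higher means a greater rise or a smaller fall in C3H, which need not be a higher level. The effect was higher in C3H for all 3 club cell, 3 of 4 B cell and 3 of 4 T cell markers. It was higher for 2 of 5 alveolar macrophage markers and lower for 1. For 1 each of the alveolar type 2, ciliated, dividing cell and endothelial markers it was higher. The B cell sum in saline hyperoxia was 14.0 to 20.2 FPKM in C3H and 13.4 to 28.9 in C57B. The club and T cell counts were the same without C3HM mice 1 and 3, all 4 B cell markers then passed, and 0 of 5 alveolar macrophage markers passed. Their part in the values of Sepp1, Selm and Sephs2 was not tested.

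**Figure D2:**
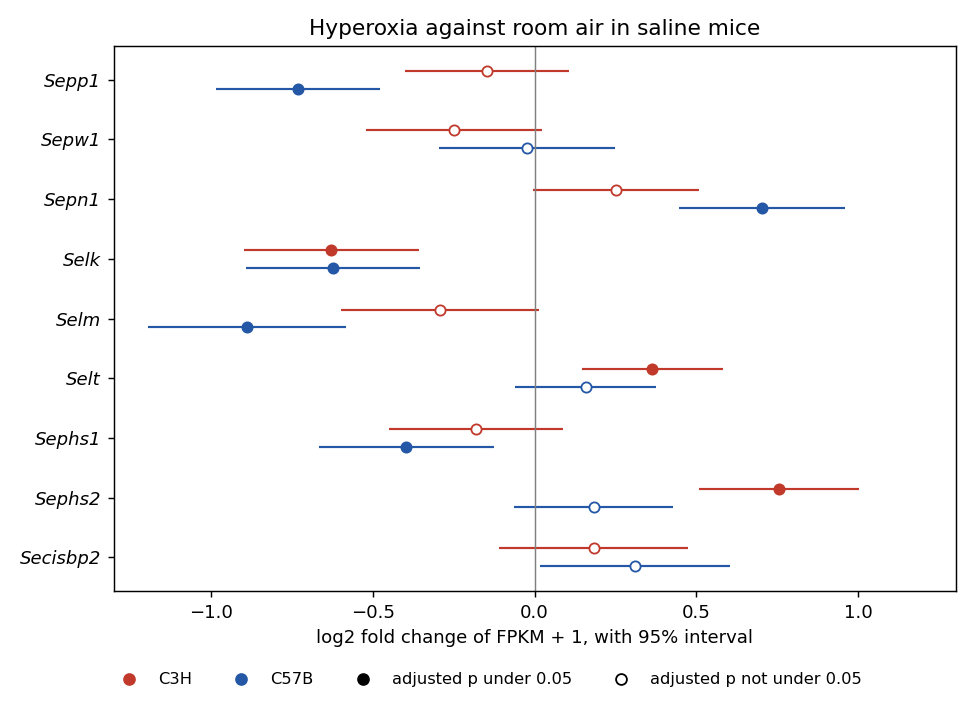
Log2 fold change of FPKM + 1 (horizontal axis) between hyperoxia and room air in saline mice, for C3H (red) and C57B (blue), 12 mice a strain, with 95% intervals and filled points where the adjusted p was under 0.05. The estimates of Sepp1 and Selm lie lower in C57B (-0.73 and -0.89) than in C3H (-0.15 and -0.29), whereas Selk is at -0.63 and -0.62. The strain difference missed the threshold for Selm (limma adjusted p = 0.0673) and, after median ratio scaling, for Sepp1 (0.39, limma adjusted p = 0.129). Without C3HM SAL RA mice 1 and 3 the Sepp1 difference was 0.40, and the estimated fall of Selk was smaller in C3H than in C57B.

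None of the 9 passed for a difference in the hyperoxia effect between the sexes, where 0.0368% of all genes passed by limma. Of the 16321 genes tested, 2964 had an unadjusted p under 0.05, and so did 1 of the 9, Selk. The Selk estimate was -0.83 ± 0.13 in males and -0.42 ± 0.13 in females (adjusted p of the difference 0.243), and without C3HM mice 1 and 3 the difference was -0.17 (adjusted p = 0.710). The estimates were -0.38 in males and -0.50 in females for Sepp1, -0.59 in both for Selm, and 0.47 in males and 0.46 in females for Sephs2. In males without C3HM mice 1 and 3 they were -0.57 for Sepp1, -0.65 for Selm, 0.23 for Sephs2 and -0.59 for Selk.

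ATG alone was compared with saline in the 24 room-air mice. None of the 9 genes passed by limma, 0 had an unadjusted p under 0.05, and 0.0185% of all genes passed. Sepp1 was at 651, 775 and 932 FPKM with ATG and at 489, 767 and 844 with saline, and the groups overlapped for each of the 9. The largest estimates were those of Sepw1, -0.16 with a 95% interval from -0.37 to 0.05, and Selk, -0.14 with an interval from -0.33 to 0.06. Without C3HM mice 1 and 3 they were -0.03 and -0.01. The difference in the ATG effect between strains passed for none of the 9 (0 with an unadjusted p under 0.05) and for 0% of all genes, with estimates from -0.18 for Secisbp2 to 0.20 for Sephs1, and from -0.20 for Secisbp2 to 0.16 for Sepw1 without both mice.

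In the 24 hyperoxia mice ATG again moved none of the 9 past the threshold by limma, beside 5.47% of all genes. Of the 15860 genes tested, 3472 had an unadjusted p under 0.05, and so did 3 of the 9. Those were Sepw1 (0.21 ± 0.07, adjusted p = 0.0793), Sepp1 (-0.24 ± 0.09, adjusted p = 0.118) and Sepn1 (-0.14 ± 0.05, adjusted p = 0.119). Sepw1 was at 278, 360 and 462 FPKM with ATG and at 228, 309 and 445 with saline. The 95% interval was narrowest for Selt, from -0.04 to 0.11, and those of Selk and Sephs1 ran from -0.13 to 0.18 and from -0.18 to 0.18. Sepp1 passed without C3HF ATG HYP mouse 35 (-0.29, adjusted p = 0.0381) or C57BF SAL HYP mouse 43 (-0.29, adjusted p = 0.0430). The effect of ATG was also not shown to differ between room air and hyperoxia for any of the 9 (2.77% of all genes passed). At an unadjusted p under 0.05 by limma were 3190 of 16994 genes and 3 of the 9. These 3 were Sepw1 at 0.38 (adjusted p = 0.0887), Sepp1 at -0.33 (adjusted p = 0.107) and Sepn1 at -0.23 (adjusted p = 0.202). Without C3HM mice 1 and 3 these were 0.24, -0.23 and -0.16.

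Within a strain, ATG passed the test for 1 of the 9 genes, Sepp1, in C3H hyperoxia mice. The 6 C3H mice given ATG had 424, 408, 437, 394, 610 and 368 FPKM, and the 6 given saline had 765, 629, 659, 568, 675 and 611. Of the ATG mice, 5 were below every saline mouse, and C3HF mouse 35, at 610, was the sole overlap. The log2 change was -0.58 ± 0.12 (limma adjusted p = 0.0163, where 2.65% of all genes passed), and it missed the threshold without C3HF SAL HYP mouse 32 (adjusted p = 0.0559) or C3HF ATG HYP mouse 36 (adjusted p = 0.0530). In C57B hyperoxia mice ATG gave 393, 479 and 535 FPKM against 322, 443 and 554 with saline, a log2 difference of 0.10 ± 0.12 (adjusted p = 0.689). The difference between the strains was -0.68 ± 0.18 with an adjusted p of 0.1003, in a contrast added after these values were seen and in which 0.416% of all genes passed, so a strain difference was not established. It passed without C3HF ATG HYP mouse 35 (adjusted p = 0.0244), without C57BF SAL HYP mouse 44 (adjusted p = 0.0379) or with all 48 mice fitted together (adjusted p = 0.0232). With ATG the C3H mice were at 440 ± 86.7 FPKM and the C57B mice at 475 ± 48.2 (SD, n = 6 each).

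**Figure D3:**
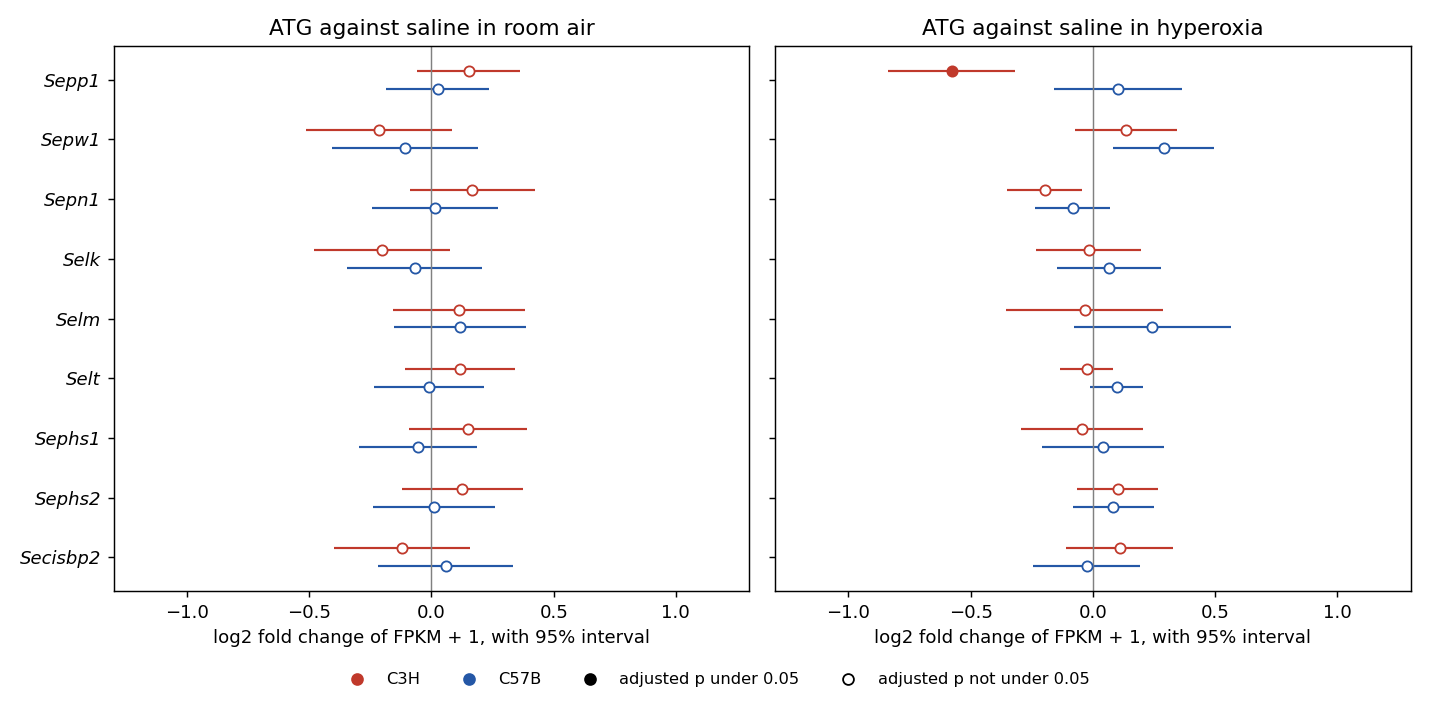
Log2 fold change of FPKM + 1 (horizontal axes) between ATG and saline in room air (left) and in hyperoxia (right), for C3H (red) and C57B (blue), 12 mice a strain and air, with 95% intervals and filled points where the adjusted p was under 0.05. Sepp1 in C3H hyperoxia mice, at -0.58, is the sole filled point.

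In these C3H hyperoxia mice the summed FPKM of 5 alveolar macrophage markers was 87.1 to 431 with ATG and 252 to 656 with saline. That of 5 endothelial markers was 950.0 to 1630.0 and 1287 to 1735. Some other marker sums were higher with ATG. The fibroblast sum was 451 to 556 FPKM with ATG and 347 to 483 with saline. The median dividing cell sum was 14.1 with ATG and 10.7 with saline, and the median neutrophil sum was 753 and 205. The ranges with ATG and saline overlapped for each of these sets. Medians of the remaining sets lay on either side. With ATG in hyperoxia over both strains 4 of 5 alveolar macrophage markers fell. The part of any of these marker sets in the Sepp1 value was not tested.

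At baseline, in the 12 saline room-air mice, strain, sex and their interaction were compared as the study's design sets out. The threshold here was an adjusted p under 0.05. The paper on these data lists transcripts at a limma p under 0.05, and selenoprotein P, encoded by Sepp1, is among those it names for the interaction. None of the 9 passed for strain (11.8% of all genes did by limma), for sex (0.669%) or for the interaction (0%). At an unadjusted p under 0.05 by limma there were 3, 2 and 4 of the 9. Of all 15546 genes tested, 4090, 3617 and 2538 met that cut. For strain, Sepn1 was at 14.2, 21.3 and 28.3 FPKM in C3H and at 13.1, 15.3 and 20.6 in C57B, a log2 difference of 0.40 ± 0.15 (adjusted p = 0.104). Sephs2 differed by -0.37 ± 0.14 (adjusted p = 0.109) and Sepw1 by 0.33 ± 0.14 (adjusted p = 0.166). Without C3HM mice 1 and 3 these became 0.54 for Sepn1 (adjusted p = 0.0596), -0.13 for Sephs2 and 0.07 for Sepw1.

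For sex, Selk was at 123, 149 and 207 FPKM in males and at 95.9, 111 and 127 in females, and 5 of 6 males were above all females. Its log2 difference was 0.52 ± 0.14 (limma adjusted p = 0.0915), and 0.27 without C3HM mice 1 and 3 (adjusted p = 0.334). Sepw1 differed by 0.47 ± 0.14 (adjusted p = 0.116), and by 0.20 without both (adjusted p = 0.445). In C57B mice alone the sex differences were 0.34 for Selk and 0.04 for Sepw1. The 4 genes with an unadjusted p under 0.05 for the interaction by limma were Sepw1 (0.86, adjusted p = 0.226), Selt (-0.67, adjusted p = 0.257), Sephs2 (-0.65, adjusted p = 0.283) and Sepp1 (-0.55, adjusted p = 0.283). The same 4 values without C3HM mice 1 and 3 were 0.33, -0.21, -0.17 and -0.18.

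Over all 48 mice, averaged over sex, injection and air, 2 of the 9 genes were higher in C3H, beside 19.1% of all genes that were higher and 41.6% that differed in either direction by limma. Sepn1 differed by 0.18 ± 0.05 (adjusted p = 0.00384) and Selm by 0.21 ± 0.07 (adjusted p = 0.0174). Sepn1 was at 22.8 ± 3.59 FPKM in C3H and 20.4 ± 5.25 in C57B (SD, n = 24 each), and Selm at 45.5 ± 10.2 and 40.3 ± 13.4, so that the groups overlapped widely. The differences were 0.22 and 0.23 without C3HM mice 1 and 3. The average joined unlike conditions. For Sepn1 the strain difference was 0.40 in saline room air and -0.05 in saline hyperoxia (adjusted p = 0.781), and with ATG in hyperoxia it was at 19.5, 21.2 and 24.1 FPKM in C3H and at 22.5, 24.5 and 26.8 in C57B. For Selm the difference was -0.01 in saline room air (adjusted p = 0.966) and 0.58 in saline hyperoxia. Sepw1 (0.15, adjusted p = 0.0509) and Sepp1 (0.13, adjusted p = 0.0787) missed the threshold, and without those mice Sepp1 passed at 0.17 (adjusted p = 0.0124) while Sepw1 had 0.09 (adjusted p = 0.264).

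Other genes of selenium metabolism gave the setting. A list of 29, made of the remaining selenoproteins, the incorporation machinery, selenium uptake receptors and selenium-binding proteins, was found in full, and 27 were tested for hyperoxia. Of these, 11 rose and 3 fell, beside 60.1% of all genes called in either direction. The list's median change was 0.19 (0.12 without C3HM mice 1 and 3) against 0.01 over all genes. With C3HM mice 1 and 3 left out, 8 rose and 3 fell. Gpx2, a glutathione peroxidase of epithelia, went from 24.0 ± 11.7 to 103 ± 25.2 FPKM (2.22 ± 0.24 on the log2 scale, limma adjusted p = 1.42e-07). Txnrd1, the cytosolic thioredoxin reductase, went from 30.3 ± 7.87 to 136 ± 45.3 FPKM (2.11 ± 0.10, adjusted p = 1.97e-12). Lrp8, a receptor for Sepp1, rose by 1.23 from a level of 0.333 FPKM, and Ncl, nucleolin, rose by 1.10. The values without both mice were 1.86 for Gpx2, 1.96 for Txnrd1, 1.21 for Lrp8 and 1.25 for Ncl. These 4 were named because their changes were the largest in size among the listed genes that passed. Each of the 4 changes was larger in size than that of any of the 9, with and without both mice.

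Of the same list, none of 25 tested genes passed for ATG in room air by limma, beside 0.0185% of all genes, and 4 rose and 1 fell of 28 with ATG in hyperoxia, beside 5.47% of all genes. Gpx3, the secreted glutathione peroxidase, fell by 0.71 (adjusted p = 0.0218), Dio3 rose by 0.51 (adjusted p = 0.0489), Pstk, a kinase that acts on the tRNA before selenium is added, by 0.32 (adjusted p = 0.0219), and Trnau1ap by 0.30 (adjusted p = 0.00958). For strain over all mice, 3 of 28 were higher and 11 lower in C3H, beside 19.1% and 22.4% of all genes, among them Selenbp2 (1.23), Ept1 (1.14), Gpx3 (-0.67) and Lrp8 (-0.54). These counts were 4 and 10 without C3HM mice 1 and 3. The hyperoxia effect was higher in C3H than in C57B for 1, Selenbp2 (1.35), and lower for 1, Ncl (-1.26), of 27 tested, beside 11.5% of all genes. Both mice left out, Selenbp2 had 0.74 (adjusted p = 0.148) and Ncl -0.95 (adjusted p = 0.00685), and Dio2, named after its value was seen, passed at -0.94 (adjusted p = 0.0467).

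**Figure D4:**
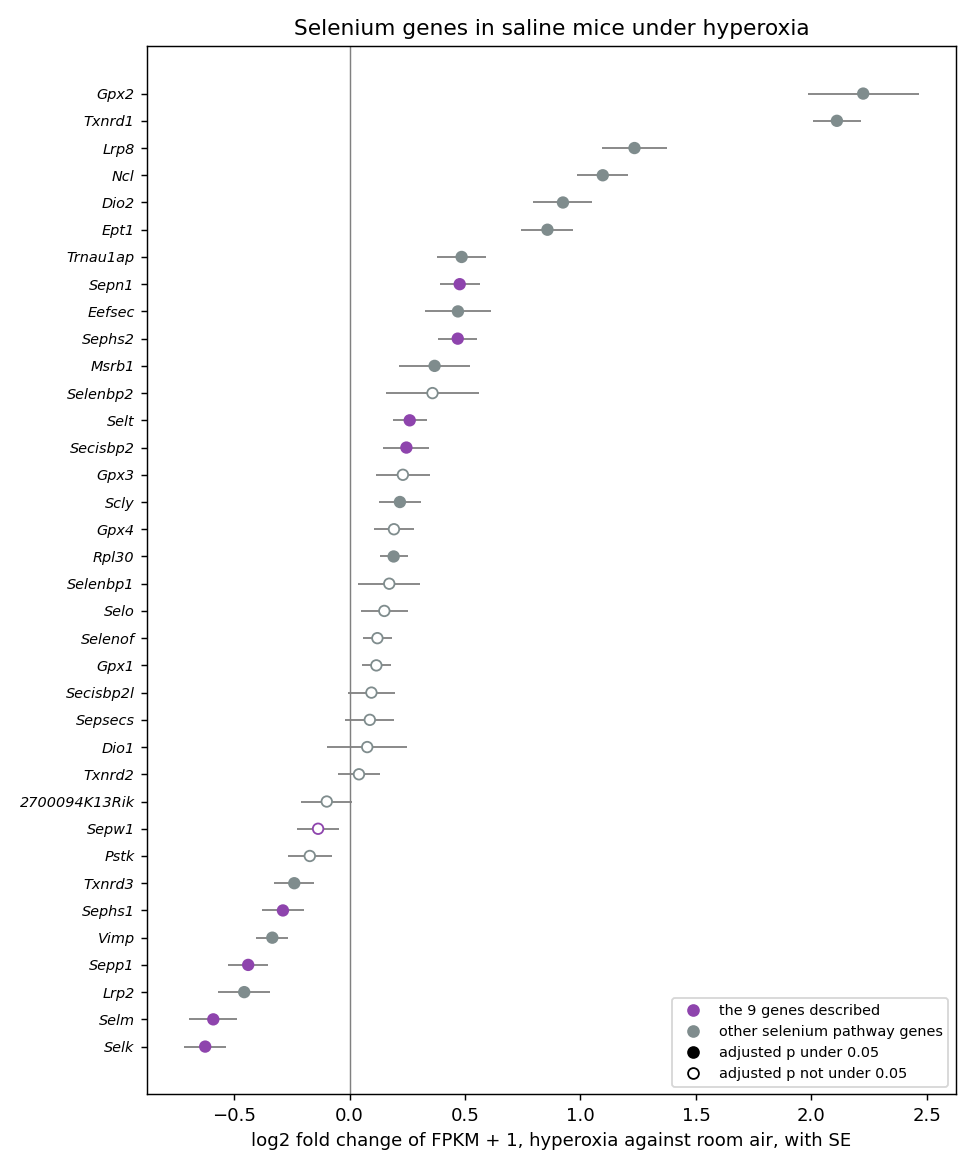
Log2 fold change of FPKM + 1 (horizontal axis, with SE) between hyperoxia and room air in 24 saline mice for the 9 genes described (purple) and the 27 other selenium pathway genes tested (grey), filled where the adjusted p was under 0.05. Gpx2 (2.22) and Txnrd1 (2.11) lie far above the 9 genes, which run from -0.63 for Selk to 0.48 for Sepn1.

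Likeness of pattern was described over the means of the 16 groups, which share their libraries and the large hyperoxia response, with no test. The C3HM SAL RA mean included mice 1 and 3, which stood apart for Sepw1, Selk, Sephs2 and Selt. The correlations were not computed without them. Among the 9, the highest correlations were 0.87 for Selt with Sephs2, 0.836 for Sepp1 with Selm and 0.786 for Selk with Selm, and the lowest was -0.827 for Selk with Secisbp2. Of 16994 genes, the 3 most like Sepp1 were Wasf3 (0.964), Pcolce2 (0.957) and Cav2 (0.956). The 3 most like Sephs2 were Capg (0.962), Adgre1 (0.95) and Glipr1 (0.948). Selm was most like Tmem205 (0.97), Vkorc1 (0.966) and Zfp60 (0.965), Selk most like Sp9 (0.966), Atg101 (0.963) and 1110025M09Rik (0.944), and Sepn1 most like Alpl (0.948), Ccm2l (0.931) and Vopp1 (0.92). For Selt the nearest were RP24-443B5.5 (0.962), Gm9769 (0.954) and Tmx1 (0.952), and for Sephs1 they were St3gal6 (0.937), Fbxo10 (0.93) and Ccdc117 (0.929). Sepw1 and Secisbp2 had the loosest partners, Dgcr6 (0.896), Gtf2h5 (0.876) and Vps25 (0.867) for Sepw1, and Dgkd (0.89), Galnt3 (0.883) and Gm10518 (0.878) for Secisbp2.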

How the data were processed

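Lung RNA from 48 mice was sequenced, 1 library a mouse. Alignment was with GSNAP against mm10, and the deposited values are the authors' FPKM from Cufflinks, per the submitters' processing notes. The annotation release is not given in the sources used here. Read counts and therefore depth are unknown, and FPKM summed to 510933 to 748290 a mouse. Scgb1a1 alone made up 1.198 to 30.2% of that sum. Its share of reads is unknown, and whether it lowered the other FPKM in the same library was not tested. The labels describe a directional library. Whether Cufflinks used strand is not given in the sources used here, so reads of Sepp1 and of Ccdc152 on the opposite strand (at most 0.254 FPKM), and of Sephs2 and Gm44729, may not be separated. The labels give saline to 24 mice and were followed, although the design text speaks of ATG for every group. Sources differ on the C57Bl/6 substrain. Nothing says how mice were assigned to litters or runs, so p-values measure the spread between these mice.

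1 gene with a failed estimate was dropped. Genes at 1 FPKM or more in 3 or more of the mice fitted were tested on log2(FPKM + 1) with limma 3.58.1 in R 4.3.3 (group means, trended variance, Benjamini-Hochberg over all genes, threshold 0.05). Fold changes are on that scale, understate low genes, and were averaged over the remaining factors. Strain differences are C3H minus C57B, sex differences male minus female. The fits were tested on simulated data. All 9 genes, and up to 4 pathway genes a comparison by size of change among those past the threshold, were named. The members and lists were chosen with earlier results of these data known. Selenof and Selenov were matched by identifier. Marker lists covered lung cell types. Sequences come from GENCODE M21. Alternatives were pseudocount 0.1, no filter, median ratio scaling, quantile normalization, no trend, each mouse left out, all mice fitted together and each sex alone. Leaving out C3HM SAL RA mice 1 and 3, the ATG by strain contrast in hyperoxia and effects within a strain or sex were added after seeing the data.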

Additional observations from a re-analysis of the deposited data

Results flagged for a closer look

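The hyperoxia effect in saline mice differed between the strains for Sepp1, by 0.58 on the log2 scale (-0.15 in C3H and -0.73 in C57B), and for Sephs2, by 0.57 (0.75 and 0.18), both past the threshold in a test of the difference itself with all mice. Neither passed with median ratio scaling (adjusted p = 0.129 and 0.0894) or without C3HM SAL RA mice 1 and 3 (adjusted p = 0.120 and 0.1301).

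In groups of 6 mice of 1 strain, injection and air, 4 of 72 sets of values held a mouse far from the rest (a ratio of the gap to the range above Dixon's 95% critical value), about the 1 in 20 that chance gives. C3HF ATG HYP mouse 35 was far above the other C3H mice of its condition for Sepp1 (610 FPKM, the next at 437, ratio 0.716) and for Sephs1 (11.6 FPKM, the next at 9.89, ratio 0.642). C3HF ATG HYP mouse 34 was far below for Selk (68.6 FPKM, the next at 87.5, ratio 0.708). C57BM SAL HYP mouse 21 was far above for Selm (35.7 FPKM, the next at 25.8, ratio 0.742).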

How the results depend on the processing

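The number of the 9 genes called for hyperoxia in saline mice was 8, and 7 to 9 with each mouse left out. For the strain difference in the hyperoxia effect it was 2 (Sepp1 and Sephs2), but 1 without a filter (Sephs2), 1 with median ratio scaling or without C3HM SAL RA mice 1 and 3 (Sepn1 in both, the pair being lost), and 4 with all 48 mice fitted together. With each mouse left out it ran from 0 to 4, with 0 without C3HM SAL HYP mouse 7, C57BM SAL RA mouse 14, C3HF SAL RA mouse 25 or C57BF SAL RA mouse 39. At baseline the counts of 0 became 1 for strain with median ratio scaling or quantile normalization, and 2 for strain, for sex and for their interaction with all 48 mice fitted together. With each mouse left out they ran from 0 to 4 for strain, 0 to 3 for sex and 0 to 5 for the interaction, and the highest counts came without C3HM SAL RA mouse 2, which left mice 1 and 3 as that group. Strain over all mice gave 2, 4 with quantile normalization, and 2 to 4 with each mouse left out. With each mouse left out the count was 0 to 1 for ATG in hyperoxia and for hyperoxia by sex, 0 to 2 for ATG by hyperoxia, and 0 to 0 for ATG in room air and its difference between strains. The ATG by strain difference in hyperoxia, 0, became 1 (Sepp1, adjusted p = 0.0232) with all 48 mice fitted together and was 0 to 1 with each mouse left out. The cause of these changes was not tested.

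For single genes, the hyperoxia changes of Sepp1, Selk, Selm, Sepn1 and Sephs2 passed under all alternatives tried, with Sepp1 between -0.62 and -0.38. Sephs1 lost its call in males alone, Selt in males alone and with quantile normalization, and Secisbp2 in 4 of 9 settings and in 13 of 24 fits with a mouse left out. Sepp1 in C3H hyperoxia mice with ATG stayed between -0.69 and -0.51, and passed in all but 2 of 24 such fits, those without C3HF SAL HYP mouse 32 (adjusted p = 0.0559) or C3HF ATG HYP mouse 36 (adjusted p = 0.0530). Over 6309 refitted values of single genes none that passed changed sign, and 248 that passed in neither fit did.

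Counts of all genes that passed changed by over 1.5 times in several settings. With all 48 mice fitted together they went from 1880 to 2994 for hyperoxia by strain, 6 to 306 for hyperoxia by sex, 66 to 234 for ATG by strain in hyperoxia, and at baseline from 1832 to 2982 for strain, 104 to 1915 for sex and 0 to 748 for strain by sex. In males alone hyperoxia went from 9803 to 6403 and ATG in hyperoxia from 868 to 0, which was 9 in females alone. Without a filter ATG by hyperoxia went from 470 to 313 and sex at baseline from 104 to 40, and the latter was 30 without C3HM mice 1 and 3. The counts of 0 to 6 for hyperoxia by sex, ATG in room air, its strain difference and strain by sex stayed at 7 or fewer in the remaining settings. With median ratio scaling the genes higher and lower were 262 and 369 in place of 617 and 251 for ATG in hyperoxia, 178 and 363 in place of 265 and 205 for ATG by hyperoxia, 933 and 998 in place of 609 and 1223 for strain at baseline, and 50 and 40 in place of 37 and 67 for sex. Median ratio scaling moved the median of all genes by -0.15 on the log2 scale for hyperoxia by strain, -0.13 for hyperoxia by sex, 0.11 for sex and 0.14 for strain by sex at baseline, and quantile normalization moved it by 0.11 for strain. Leaving out C3HM mice 1 and 3 left 1 mouse in that group, assumed to vary like the others. Without counts, depth limits cannot be given. No paired analysis was possible because every mouse has its own number and the groups share none.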
